A study of Bos taurus with 4 samples.

Results

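Aminoacyl-tRNA synthetases were followed on 4 bovine expression arrays hybridized with sperm RNA of Murrah buffalo (Bubalus bubalis) breeding bulls. The arrays held 2 high-fertile and 2 low-fertile samples, each a pool of equal amounts of RNA from 2 bulls, and the bulls had been graded by their field conception rates. RNA came from sperm selected on Percoll, a density gradient, and was primed with oligo-dT, amplified and labelled with the dye Cy3. No treatment was given, and the labels state no difference between the groups but the fertility grade. The members were the sample probes whose gene name is a synthetase symbol, a letter of the amino acid code followed by ARS, with names ending in 2 taken as the mitochondrial enzymes and with EPRS, FARSA and FARSB added. They comprise 92 probes of 35 genes among the 51282 probes and 32429 gene names of the array. Of these genes, 20 encode cytosolic and 15 mitochondrial enzymes. EARS2, the mitochondrial glutamate enzyme, has no probe under that name. A probe listed only by its transcript matched EARS2 in the RefSeq gene table, and no array had it well above background.

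A synthetase joins an amino acid to the tRNAs that read its codons, so each step of translation depends on these enzymes. Class I and class II synthetases have unrelated catalytic folds. In the cytosol of animal cells, several synthetases are held together with the scaffold proteins AIMP1, AIMP2 and EEF1E1 in the multisynthetase complex. Most mitochondrial synthetases are separate nuclear genes, while GARS and KARS each supply both the cytosol and the mitochondrion. Mature sperm are largely silent in transcription and cytosolic translation, and most of their RNA is taken to be left from spermatogenesis.

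Oligonucleotides of 9 of the 10 called genes are shown first, as the scanner files give them, because the results differ between probes of a gene. Each is 60 bases long, and places are those of the cattle build Btau_3.1 as given in the files. No gene model of that build was used here, so exon, intron and UTR are not stated. The sequences come from cattle, and mismatches of buffalo RNA to them are unknown. The first set shows the probes of 4 genes that were called in the comparison below and hold no AATAAA, the signal shown further on. The files give no place for EPRS. KARS lies at chr18:2342210-2342269 on the minus strand. The 60 bases of HARS2 spread over chr7:51141280-51141460 (plus strand) and those of AARS2 over chr23:18447366-18447947 (minus strand), so neither probe is continuous in the genome.
EPRS: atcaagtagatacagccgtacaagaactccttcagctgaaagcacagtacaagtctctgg
KARS: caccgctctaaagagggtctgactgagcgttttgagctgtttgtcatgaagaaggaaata
HARS2: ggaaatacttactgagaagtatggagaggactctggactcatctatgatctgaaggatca
AARS2: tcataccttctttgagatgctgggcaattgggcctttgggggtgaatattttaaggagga

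The cytosolic and mitochondrial cysteine enzymes each have a probe that aligns with that of the other, shown because the calls of these genes differ. Capitals mark the 32 identical bases among the 51 that align without gaps. The CARS probe spreads over chr29:50469361-50469498 (plus strand) and the CARS2 probe over chr12:83332088-83332759 (minus strand).
CARS: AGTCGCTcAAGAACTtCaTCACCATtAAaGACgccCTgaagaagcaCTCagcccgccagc
CARS2: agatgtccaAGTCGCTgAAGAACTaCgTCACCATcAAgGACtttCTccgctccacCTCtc

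Near the 3′ end of a transcript lies the polyadenylation signal, usually AATAAA. The last 30 bases of the called probes with that signal are shown, with the signal in capitals. They are GARS at chr4:68318484-68318543 (minus strand), NARS at chr24:59152129-59152188 and chr24:59152119-59152178 (minus strand), TARS2 at chr3:21727729-21727788 (minus strand) and YARS2 at chr5:83044894-83044953 (plus strand). On each of these probes the gene was called lower in the low-fertile pools.
GARS: caacttatgaccatttgctctAATAAAaga
NARS, first of the pair: ctattcccagcaatcAATAAAtggacacgt
NARS, second of the pair: caatcAATAAAtggacacatgtaaaaactc
TARS2: aaactaaaaatAATAAActtggggaacttc
YARS2: ggtgaaatctgAATAAActttgtggattgt

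The remaining YARS2 probe, at chr5:83043405-83043464 (plus strand), holds a run of bases that probes named for other genes also hold. Windows of 30 bases are shown, and capitals mark the unbroken run that each probe shares with the YARS2 probe and, in YARS2, the 17 bases common to all 5. IPO5 (an importin), KIAA0226L, MBL2 (mannose-binding lectin) and SLC5A12 (a lactate transporter) are not related to the synthetases.
YARS2: gagcTGACTCATTTGAAAAGActctgatgc
IPO5: gagAAGAGCTGACTCATTTGAAAAGACcct
KIAA0226L: gtgAAGAGCTGACTCATTTGAAAAGAtcct
MBL2: atgtggAGAGCTGACTCATTTGAAAAGACc
SLC5A12: aagagtTGACTCATTTGAAAAGACcctgat

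Some facts of the whole series bear on every value below. Between 23228 and 25642 probes were well above background on 3 of the arrays, and 13033 were on the array of low-fertile pool 2, a mark set by the scanner software for each spot. Pearson's r across the 12552 probes marked on all 4 arrays was 0.981 and 0.980 within the groups and 0.924 to 0.935 between them. Row 1 of the slide held the high-fertile and row 2 the low-fertile pools, so slide position and fertility cannot be told apart. Of 20 sperm markers, 7 were tested, with PRM1, TNP1, ODF1, ACR and CATSPER1 marked on all 4 arrays, while PRM2, TNP2, AKAP4 and SMCP were not tested. PRM1 rose by 0.67 on the log2 scale (adjusted p = 0.0231, limma), and the log2 of the sperm list's summed normalized signal was 4.89 and 4.63 in the high-fertile and 4.87 and 4.75 in the low-fertile pools. Of 14 leukocyte markers, 12 were tested and CD3E and CD8A were not. PTPRC rose by 0.78 on the log2 scale (adjusted p = 0.0160, limma) and CD3D fell by 1.05 (adjusted p = 0.0102). The log2 of the summed signal of this list was 8.58 and 8.65 in the high-fertile and 8.74 and 8.90 in the low-fertile pools. PTPRC, at normalized log2 signals of 7.57 to 8.45, and CD3D, at 5.94 to 7.19, carry most of that sum. For 10 epithelial markers, of which 8 were tested and EPCAM and CDH1 were not, it was 4.64 in both high-fertile and 4.68 and 4.84 in the low-fertile pools, and CLDN7 rose by 0.80 (adjusted p = 0.0133, limma). For 6 red cell markers, of which 3 were tested, it was 3.07 and 3.59 against 3.33 and 3.56, and 1 of the 3 was called higher, by 1.24 (adjusted p = 0.0118, limma). The part of these cells in the synthetase values was not tested. In pooled sperm RNA, fewer cells of a type and less RNA per cell cannot be told apart.

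A probe was tested when both arrays of a group had it well above background. This held for 37 of the 92 synthetase probes, and 25 of the 35 genes had at least 1 such probe (over the whole array, 51.5% of genes). The genes with none were the cytosolic AARS, DARS, FARSB, HARS, IARS, LARS, RARS and TARS and the mitochondrial FARS2 and WARS2. DARS, IARS, LARS and RARS belong to the multisynthetase complex, so 4 of its 8 synthetases were tested. Over the untested probes the processed signal ran from 3.13 to 179. The upper end was a FARS2 probe, for the mitochondrial phenylalanine enzyme, with 179 in high-fertile pool 1, where the spot lay on a patch of bright spots, and 16.3, 11.1 and 7.60 in the other pools.

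All 25 tested genes had a probe well above background in both high-fertile pools. In the low-fertile pools the picture was uneven. The probe of highest mean signal, which stands for a gene from here on, was marked in both low-fertile pools for 12 genes, in low-fertile pool 1 alone for 11 and in neither for EPRS and TARS2. Over all tested probes 38.7% were tested through the high-fertile pair alone. A gene tested that way passed through the group in which it was mostly higher, so the counts are also given for the 12 genes marked on all 4 arrays.

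**Figure D1:**
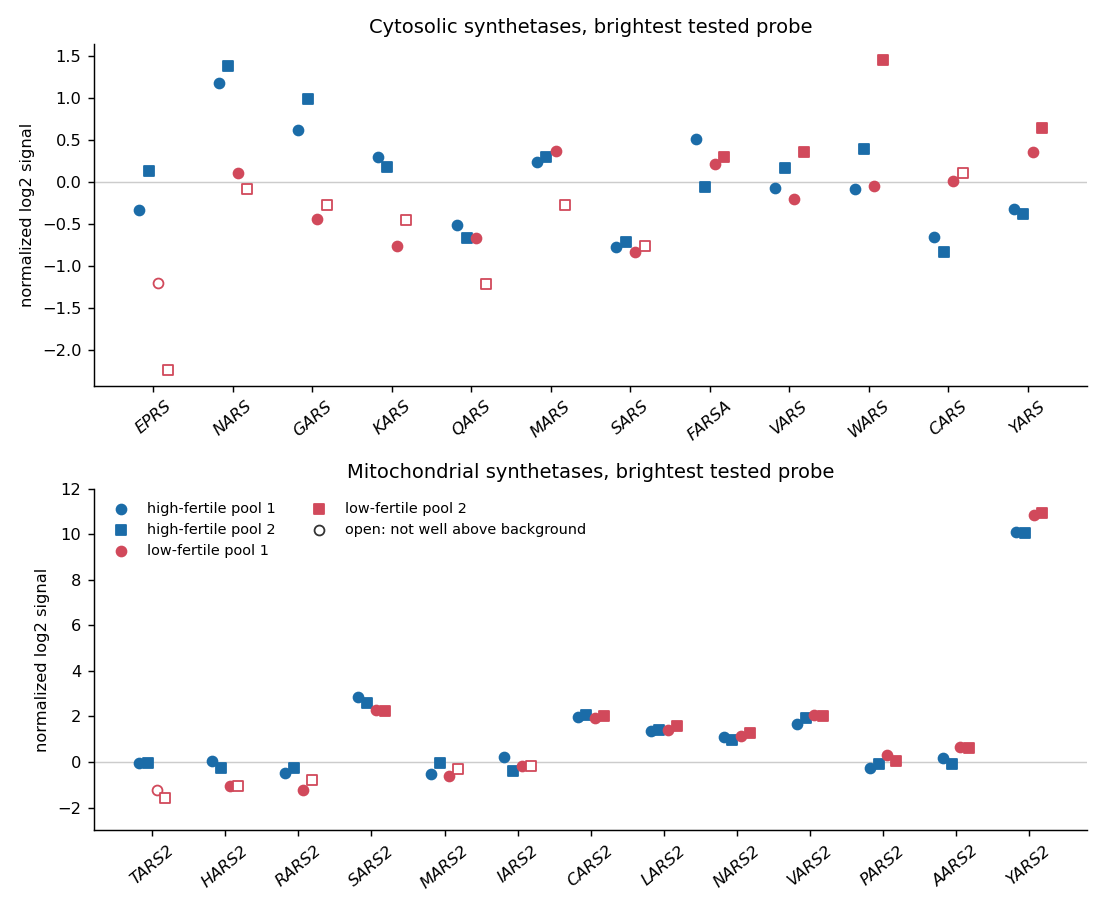
Normalized log2 signal (vertical axis) of the brightest tested probe of 12 cytosolic and 13 mitochondrial synthetases in each of the 4 pools, with 0 at the 75th percentile of the array and open symbols where the probe was not well above background. For NARS, GARS and TARS2 both low-fertile pools lie below both high-fertile pools, for YARS and AARS2 above them, and the levels of different genes are not comparable because the probes differ.

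Low-fertile and high-fertile pools were set against each other to ask whether synthetase transcripts differ with fertility. In limma, with Benjamini-Hochberg adjustment over all tested probes, 6 synthetase genes were lower and 4 were higher in the low-fertile pools at an adjusted p under 0.05. By the same rule 26.1% of the 16685 genes tested on the array were called, 16.6% lower and 9.53% higher. EPRS, NARS, GARS and KARS (cytosolic) and TARS2 and HARS2 (mitochondrial) fell, and YARS and CARS (cytosolic) and YARS2 and AARS2 (mitochondrial) rose. YARS2 is read from a probe with a run shared by other genes, and with such probes left out 7 synthetase genes were lower and 3 higher. The groups did not overlap in 15 of the 25 genes, beside 69.4% of all genes. None of the 6 that fell was well above background in both low-fertile pools. Of the 12 genes that were, 0 were lower and 3 higher by limma, YARS2 among the latter, beside 9.32% and 13.2% of all genes so marked (22.5% in either direction). With a fit of these probes alone SARS2 joined as lower (adjusted p = 0.0461, limma), so that 4 of the 12 were called beside 33.9% of all genes in that fit, and without an adjustment 5 of the 12 had a p under 0.05, beside 4851 of 10639 genes.

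**Figure D2:**
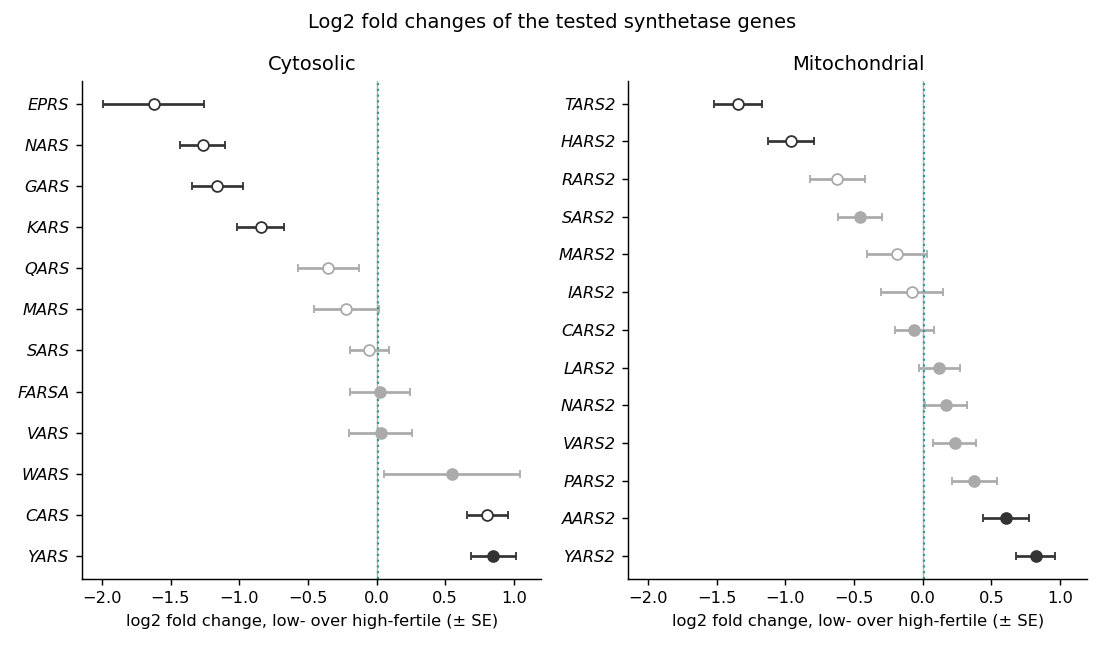
Log2 fold change of low-fertile over high-fertile pools (horizontal axis) of each tested synthetase with its standard error, dark where the adjusted p was under 0.05 in limma and filled where the probe was well above background in both low-fertile pools. The dotted line is the median of all genes, 0.01, and all 6 genes called lower have open circles.

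Of 12 tested cytosolic genes, 4 were called lower and 2 higher, and of 13 mitochondrial genes 2 lower and 2 higher, beside 16.6% lower and 9.53% higher over all genes. With shared-run probes left out the mitochondrial counts were 3 lower and 1 higher. The compartments were not compared by a test. The median log2 fold change was -0.14 over the cytosolic and -0.06 over the mitochondrial genes, beside 0.01 over all genes. Over the genes marked on all 4 arrays these medians were above 0, at 0.29 for 4 cytosolic and 0.20 for 8 mitochondrial genes, beside 0.15 for all genes so marked. With the arrays scaled to the spike-in probes, the median of all genes was -0.36, the medians were -0.51 and -0.43, and 8 synthetase genes were called lower and 1 higher, beside 34.3% of all genes called in that fit.

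Of the multisynthetase complex, EPRS, KARS, QARS and MARS were tested, and EPRS and KARS were called lower. EPRS is a bifunctional enzyme that charges both glutamate and proline tRNAs. Its processed signal was 29.1 and 40.6 in high-fertile pools 1 and 2 and 16.0 and 6.90 in the low-fertile pools. Both of the latter were below the former and not well above background. The normalized log2 means were -0.10 ± 0.33 and -1.73 ± 0.73 (SD, n = 2 pools each). In the low-fertile pools EPRS was 3.08-fold lower, with a fitted log2 fold change of -1.62 (SE 0.369, adjusted p = 0.0284, limma). That fold is the fitted value, not a minimum, because the probe's own dim signals lay over the lowest marked signal on each array. The call was lost without high-fertile pool 1 (adjusted p = 0.0603) or pool 2 (0.116). No array had the remaining EPRS probe well above background.

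KARS charges lysine tRNAs in both compartments. On its probe the signals were 45.0 and 41.9 in the high-fertile and 21.9 and 23.8 in the low-fertile pools, again without overlap. KARS fell by 0.84 on the log2 scale (SE 0.169, adjusted p = 0.0194, limma). Its adjusted p was 0.0930 without high-fertile pool 1, 0.0714 without pool 2 and 0.0521 without low-fertile pool 1. QARS, the glutamine enzyme, and MARS, the methionine enzyme, had log2 fold changes of -0.35 (SE 0.222) and -0.22 (SE 0.239), which did not pass (adjusted p = 0.283 and 0.525, limma). In MARS low-fertile pool 1, at a signal of 47.9, was the highest of the pools and low-fertile pool 2, at 27.0, the lowest.

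The proteins that hold the complex together were measured with it. AIMP1 had signals of 41.2 and 49.5 in the high-fertile pools against 17.0 and 14.4 in the low-fertile pools. It fell by 1.44 on the log2 scale (SE 0.158, adjusted p = 0.00391, limma). AIMP2 stood at 45.2 and 38.8 against 22.8 and 10.8. AIMP2 fell by 1.33 (SE 0.309, adjusted p = 0.0303, limma). EEF1E1 had a log2 fold change of -0.25 (SE 0.224, adjusted p = 0.442, limma), with 29.4 and 31.0 against 20.9 and 27.5. Of the 3 scaffolds 2 were called lower, beside 16.6% of all genes, and as with EPRS and KARS, none of them was well above background in low-fertile pool 2.

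Among the cytosolic enzymes outside the complex, NARS and GARS fell. NARS charges asparagine tRNAs, and all 4 of its tested probes were called lower. On the probe of highest signal it read 82.7 and 96.8 in the high-fertile and 39.8 and 30.8 in the low-fertile pools. NARS fell by 1.27 on the log2 scale there (SE 0.163, adjusted p = 0.00553, limma), with normalized means of 1.28 ± 0.15 and 0.01 ± 0.13 (SD, n = 2 pools each).

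The other NARS probes had log2 fold changes of -0.76, -1.11 and -1.03, with adjusted p between 0.00732 and 0.0274 in limma. On each of them the low-fertile pools were lower than the high-fertile pools, with signals of 10.2 to 22.3 against 29.7 to 46.2. The probe at -1.03 and the probe of highest signal cover nearly the same place. This pair overlaps by 50 bases with 3 mismatches, so its probes are not independent measures. In the windows below, capitals mark the bases that differ, 2 of the 3.
NARS, first of the pair: cagtgtattctcaGtaaCctctattcccag
NARS, second of the pair: cagtgtattctcaAtaaGctctattcccag
The NARS probe at chr24:59153143-59153202 (minus strand) lies apart from the pair and had the log2 fold change of -0.76. Its sequence is shown as that of the NARS probe with the smallest fall.
NARS, further 5′: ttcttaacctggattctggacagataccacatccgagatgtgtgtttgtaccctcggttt

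GARS charges glycine tRNAs in both compartments. On the 3′ probe its signal was 56.1 and 73.6 in the high-fertile and 27.3 and 26.9 in the low-fertile pools. GARS fell by 1.16 on the log2 scale (SE 0.186, adjusted p = 0.00999, limma). A probe 5′ of it gave -0.43 (SE 0.202, adjusted p = 0.167, limma), with 32.2 and 26.2 against 19.0 and 21.6, so the direction was shared and the second probe was not called. NARS and GARS kept their calls with each pool left out in turn. The adjusted p then ran from 0.0109 to 0.0360 for NARS and from 0.0255 to 0.0496 for GARS.

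YARS and CARS, the tyrosine and cysteine enzymes, rose. The signal of YARS was 29.4 and 28.5 in the high-fertile and 47.4 and 50.9 in the low-fertile pools, well above background in every pool. YARS rose by 0.85 on the log2 scale (SE 0.164, adjusted p = 0.0173, limma). CARS read 23.2 and 20.8 against 37.4 and 35.1, and its spot in low-fertile pool 2 was not well above background although its signal was higher than in both high-fertile pools. CARS rose by 0.81 (SE 0.151, adjusted p = 0.0157, limma). Both calls were lost without high-fertile pool 1 (adjusted p = 0.0701 for YARS and 0.0527 for CARS), without high-fertile pool 2 (0.0853 and 0.0876) and without low-fertile pool 2 (0.0541 and 0.0531).

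The remaining cytosolic genes were not called. FARSA, the alpha subunit of the phenylalanine enzyme, was the member nearest to no change at 0.03 (SE 0.221, adjusted p = 0.941, limma), with 52.2 and 35.7 in the high-fertile and 42.8 and 40.0 in the low-fertile pools. VARS (valine) and SARS (serine) had log2 fold changes of 0.03 and -0.05. WARS, the tryptophan enzyme, gave 0.55 (SE 0.495, adjusted p = 0.439, limma), with a signal of 89.6 in low-fertile pool 2, where the spot lay on a bright patch, against 34.6 to 48.6 in the other pools. Without that spot the value was -0.19 (adjusted p = 0.608). The other 2 tested WARS probes gave 0.32 and 0.29 and were not called.

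Of the mitochondrial enzymes, TARS2 and HARS2 fell. TARS2 charges threonine tRNAs, and its probe read 35.9 and 35.7 in the high-fertile and 16.0 and 11.0 in the low-fertile pools. The high-fertile pools were nearly the same, and the low-fertile pools were not well above background. TARS2 was 2.54-fold lower, with a fitted log2 fold change of -1.34 (SE 0.175, adjusted p = 0.00577, limma). As for EPRS, that fold is the fitted value and not a minimum. The normalized means of TARS2 were -0.04 ± 0.02 and -1.39 ± 0.25 (SD, n = 2 pools each). The call held with each pool left out in turn (adjusted p = 0.00701 to 0.0343).

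HARS2, the histidine enzyme, read 38.1 and 30.8 in the high-fertile and 17.8 and 15.5 in the low-fertile pools. HARS2 fell by 0.96 on the log2 scale (SE 0.169, adjusted p = 0.0133, limma), and without high-fertile pool 1 its adjusted p was 0.0654. A second HARS2 probe gave -1.06 with a wider error (SE 0.459, adjusted p = 0.144, limma). There low-fertile pool 1 read 18.1 and low-fertile pool 2, not well above background, read 6.08. Untested probes of TARS and RARS read 5.99 and 6.06 in low-fertile pool 2, so this value lies near the floor of that array.

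AARS2, the mitochondrial alanine enzyme, had signals of 41.9 and 34.5 in the high-fertile and 58.6 and 50.7 in the low-fertile pools. AARS2 rose by 0.61 on the log2 scale (SE 0.165, adjusted p = 0.0471, limma), the weakest of the calls. With any of the 4 pools left out it did not pass (adjusted p = 0.0740 to 0.204). The other 3 tested AARS2 probes gave 0.04, 0.12 and -0.30, none of them called, so the rise was seen on 1 of 4 probes.

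YARS2, the mitochondrial tyrosine enzyme, had 2 tested probes that were called in opposite directions. The probe with the shared run read 40130 and 38902 in the high-fertile and 68746 and 63131 in the low-fertile pools. On it YARS2 rose by 0.82 on the log2 scale (SE 0.141, adjusted p = 0.0122, limma). The call was lost without high-fertile pool 1 (adjusted p = 0.0571, limma) or pool 2 (0.0698). The 3′ probe, shown above with its AATAAA, read 111 and 116 in the high-fertile and 20.2 and 11.8 in the low-fertile pools. There YARS2 fell by 2.79 (SE 0.227, adjusted p = 0.00236, limma). Low-fertile pool 2 was not well above background on that probe. Of the 3129 genes with 2 or more tested probes, 2.4% had probes called in both directions and 44.9% had fold changes of both signs. YARS2 is counted above as higher, and it is lower if probes with a repeated run are passed over.

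Of the 4 probes of other genes that share the run on the same strand, 1 was called. IPO5 read 83544 and 84519 in the high-fertile and 114572 and 110454 in the low-fertile pools, a log2 fold change of 0.51 (adjusted p = 0.0524, limma). KIAA0226L read 43466 and 42707 against 74081 and 72178 and was called higher, at 0.85 (adjusted p = 0.0123, limma). MBL2 and SLC5A12 had fold changes of 0.46 and 0.54 that did not pass (adjusted p = 0.0664 and 0.0895). All of these were higher in both low-fertile pools. On the opposite strand, CHRNA1 holds 21 bases of the run and was called lower at -0.90 (adjusted p = 0.00970, limma), and LOC510193 holds 19 and had -0.45 (adjusted p = 0.310). Which transcript binds the first YARS2 probe was not tested.

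**Figure D3:**
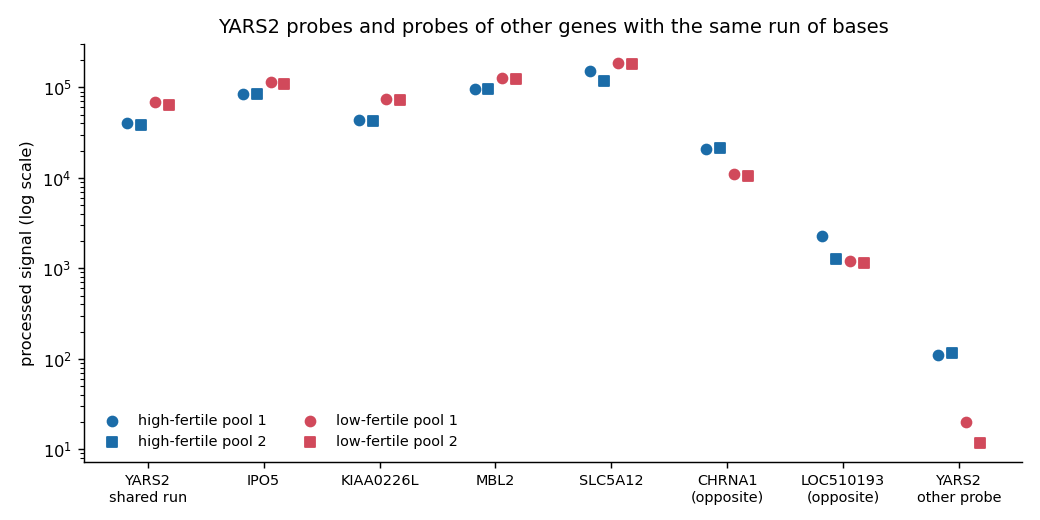
Processed signal (vertical axis, log scale) in each pool on the YARS2 probe with the shared run, on the probes of 4 genes with the run on the same strand and 2 with it on the opposite strand, and on the remaining tested YARS2 probe. The same-strand probes lie higher in both low-fertile pools, and the remaining YARS2 probe reads 111 and 116 against 20.2 and 11.8.

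Uncalled mitochondrial genes lay between -0.62 and 0.38. RARS2 (arginine) and SARS2 (serine) were the lowest at -0.62 (adjusted p = 0.0723, limma) and -0.45 (adjusted p = 0.0895), and in both the groups did not overlap. SARS2 read 263 and 223 in the high-fertile and 182 and 153 in the low-fertile pools. PARS2 (proline) was the highest at 0.38 (adjusted p = 0.145, limma), with 30.5 and 34.4 against 45.9 and 34.1. VARS2, NARS2 and LARS2 had 0.23, 0.17 and 0.12, and CARS2, IARS2 and MARS2 had -0.06, -0.08 and -0.19. CARS2 had signals of 146, 155, 141 and 131 across the pools in order, and the groups overlapped once normalized. The IARS2 spot in high-fertile pool 1 lay on a bright patch, and without it the value was 0.23 (adjusted p = 0.407).

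For 6 amino acids the cytosolic enzyme and the mitochondrial enzyme of the matching name were both tested. Proline is a further case. There EPRS, which also charges glutamate tRNAs, fell by 1.62, and PARS2 had 0.38 (adjusted p = 0.145, limma). For asparagine NARS fell by 1.27 while NARS2, with 79.0 and 72.0 in the high-fertile and 81.3 and 78.5 in the low-fertile pools, had 0.17 (adjusted p = 0.438, limma). For cysteine CARS rose by 0.81 while CARS2 had -0.06 (adjusted p = 0.767, limma) and, on the probe that aligns with the CARS probe, 0.06. For tyrosine YARS rose by 0.85 and the probes of YARS2 split as above. In the methionine, serine and valine pairs neither enzyme was called. The differences within pairs were not tested.

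By class, 5 of 11 tested class II genes were called lower and 1 higher, and 0 of 13 tested class I genes were called lower and 3 higher in limma, beside 16.6% lower and 9.53% higher over all genes tested. With shared-run probes left out YARS2 turned, and class I had 1 lower and 2 higher. EPRS, with a catalytic domain of each class, is in neither count. The class II genes that fell are NARS, GARS, KARS, TARS2 and HARS2. The median log2 fold change was -0.45 for class II and 0.03 for class I, but over the genes marked on all 4 arrays it was 0.17 for 5 class II genes and 0.23 for 7 class I genes. The classes were not compared by a test.

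**Figure D4:**
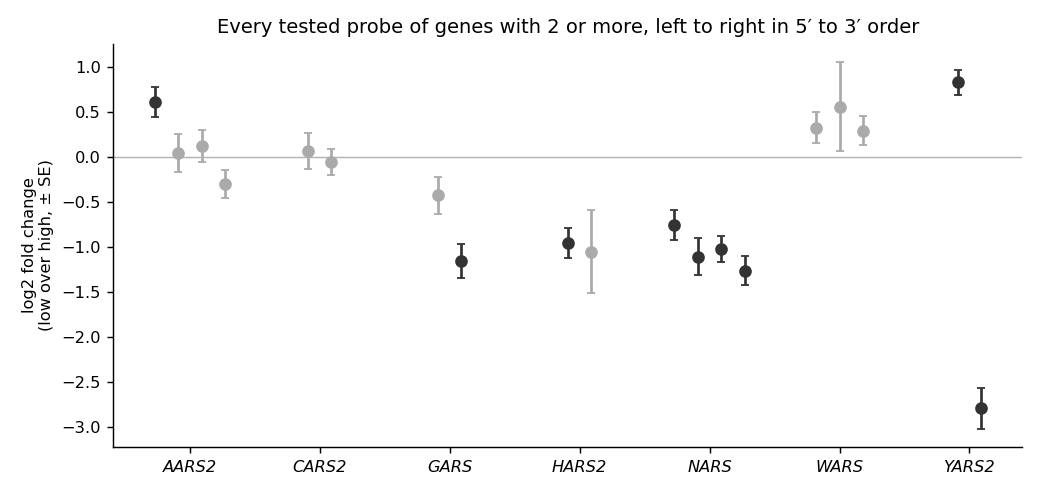
Log2 fold change with standard error (vertical axis) of every tested probe of the 7 synthetases with 2 or more tested probes, in 5′ to 3′ order, dark where the adjusted p was under 0.05 in limma. All 4 NARS probes lie below 0, the AARS2 probes lie on both sides of it, and the YARS2 probes are at 0.82 and -2.79.

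Probe sequence, which the rule did not use, was set beside the calls. Of the 37 tested probes, 10 were called lower and 4 higher, beside 17.6% and 9.22% of all tested probes (26.8% in either direction). The median GC content was 40.0% (range 35.0% to 45.0%) over the 10 and 45.0% (45.0% to 53.3%) over the 4. Over all tested probes of the array the medians were 41.7% for those called lower, 55.0% for those called higher and 45.0% in all. The motifs AATAAA or ATTAAA, searched as these letters on the probe strand, were present in 5 of the 10 probes called lower in 1 of the 4 called higher and in 9 of the 37 tested (24.3%). Over the array they were in 12.9% of the tested probes called lower, 10.5% of those called higher, 11.1% of all tested probes and 11.5% of all probes. A pair of the 5 are the overlapping NARS probes. After a correction for GC content, which was chosen after seeing the data, EPRS, KARS and TARS2 kept their calls with log2 fold changes of -1.51, -0.74 and -0.76. NARS, GARS and HARS2 lost theirs, with -0.44 (adjusted p = 0.0893, limma), -0.45 (0.148) and -0.60 (0.0589). YARS, CARS, YARS2 and AARS2 kept their calls, at 0.96, 0.64, 0.93 and 0.71, and NARS2 at 0.64 (adjusted p = 0.0405, limma) and SARS2 at -0.68 (0.0390) were newly called. In that fit 3351 of 16685 genes were called. The part of probe sequence in the differences was not tested beyond this fit.

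**Figure D5:**
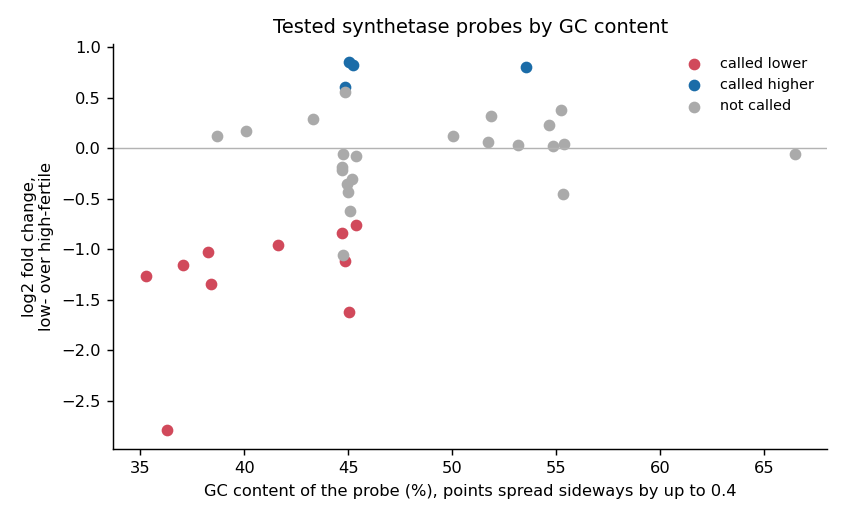
Log2 fold change (vertical axis) against the GC content of the probe in percent (horizontal axis) for the 37 tested synthetase probes, coloured by the limma call. Probes called lower lie between 35.0% and 45.0% GC, and those called higher between 45.0% and 53.3%.

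The background correction also changed sizes. After normexp correction, which was run with an offset of 50 added to every signal, the log2 fold changes of the 6 genes that fell lay nearer to 0, at -0.26 for EPRS (adjusted p = 0.0507, limma), -0.29 for KARS, -0.53 for NARS, -0.42 for GARS, -0.30 for TARS2 and -0.22 for HARS2, and EPRS was not called. YARS, CARS, AARS2 and YARS2 were at 0.39, 0.27, 0.22 and 0.65 and kept their calls. In that fit 10 of the 25 genes were called, among them a gene not called before, beside 34.8% of all genes. Scaled to the spike-in probes, CARS at 0.43 (adjusted p = 0.0664, limma), YARS2 at 0.45 (0.0502) and AARS2 at 0.23 (0.315) were not called, and YARS at 0.48 was (0.0478). With the percentile taken over the probes marked on all 4 arrays, EPRS (adjusted p = 0.0666, limma) and AARS2 (0.0551) were not called. The values of the deposited table also ended the call of AARS2 (0.0524).

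Genes that act around the synthetases were read by the same rule, and the counts below stand beside 16.6% lower and 9.53% higher, 26.1% in all, over all genes tested. As with the synthetases, a gene not well above background in low-fertile pool 2 was tested through the high-fertile pair alone, so each list is also counted over the genes marked on all 4 arrays, where 9.32% of all genes were lower and 13.2% higher. Of 8 tested accessory enzymes of aminoacylation and amino acid delivery, 0 were called lower and 1 higher in limma, and over the 5 marked on all 4 arrays likewise 0 and 1. That was EEFSEC, the elongation factor for selenocysteine, at 0.59 (adjusted p = 0.0452), with 68.4 and 59.5 in the high-fertile and 92.3 and 88.2 in the low-fertile pools. One of its spots lay on a bright patch, and the list had 0 calls with such spots left out. Of 12 tested genes of tRNA maturation and export, 3 were called lower and 0 higher, and over the 6 marked on all 4 arrays 1 and 0. ELAC1, an RNase Z that trims tRNA ends, fell by 2.69 (SE 0.146, adjusted p = 0.00221, limma), from 119 and 133 to 19.9 and 16.9. Low-fertile pool 2 was not well above background for it. RG9MTD1, a subunit of mitochondrial RNase P now named TRMT10C, fell by 2.43 (SE 0.346, adjusted p = 0.00730, limma). It read 51.0 and 53.7 against 14 and 5.96. Neither low-fertile pool was marked, and with low-fertile pool 2 raised to the lowest signal well above background on its array the fall was 5.31-fold. The list had a median of 0.08.

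Of 31 tested tRNA modification genes, 3 were called lower and 6 higher in limma, 29.0% in all beside 26.1% of all genes. Over the 19 marked on all 4 arrays 0 were lower and 4 higher, and none of the 3 called lower was well above background in low-fertile pool 2. DUS2L, a dihydrouridine synthase, fell by 2.31 (SE 0.145, adjusted p = 0.00221, limma), from 120 and 120 to 25.5 and 20.4. TRMT12, a wybutosine synthesis enzyme, fell by 1.11 (adjusted p = 0.0443). YRDC, which makes the precursor of threonylcarbamoyl adenosine, rose by 1.16 (SE 0.199, adjusted p = 0.0122, limma), from 19.8 and 15.6 to 35.4 and 38.8. PUS3, a pseudouridine synthase, rose by 1.10 (adjusted p = 0.0197, limma), and both of these were tested through the low-fertile pair alone. Of 12 tested genes of the amino acid response, 4 were called lower and 0 higher, 33.3% beside 26.1%, and over the 7 marked on all 4 arrays 1 was lower and 0 higher. ALDH18A1, an enzyme of proline synthesis, fell by 1.68 (SE 0.198, adjusted p = 0.00450, limma), from 74.7 and 62.3 to 24.4 and 16.5, and was not well above background in low-fertile pool 2. ATF4, the transcription factor of that response, fell by 1.15 (SE 0.163, adjusted p = 0.00732, limma), from 336 and 388 to 152 and 155, and was well above background in all 4 pools. The medians of the last 2 lists were 0.11 and -0.07, beside 0.01 over all genes.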

How the data were processed

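The authors hybridized 4 pooled sperm RNA samples, 1 per array, and deposited the scanner output of each. Per the file headers it was made with Agilent Feature Extraction 11.5.1.1 and holds linear intensity values, background-subtracted within each array, with a surrogate value where a spot was not above background. The authors also deposited their log2 values after a shift to each array's 75th percentile, with column medians of -1.14, -1.14, -1.13 and -1.47, used here as an alternative. Its columns ran the same way as the recomputed values (Pearson's r 0.997 to 0.999).

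The log2 processed signals of a probe's spots were averaged without outlier spots, and each array was shifted by its 75th percentile over the probes that are not controls. The 21033 probes that both arrays of a group had well above background were fitted in limma 3.58.1 (R 4.3.3), with Benjamini-Hochberg adjustment. Tables were made with scipy 1.17.1, numpy 2.4.6, pandas 2.3.3 and Python 3.11.15. The fit was tested on simulated arrays with independent noise and with changes larger than most synthetase calls here. That test cannot speak for calls of the sizes found here. A gene is represented by its probe of highest mean signal, and 30 of the 35 genes matched a current RefSeq symbol through their transcript. No tested probe was saturated. Arrays of 1 slide and 1 scan left no batch to fit. Each array held a pool of 2 bulls, so the p-values cannot measure the spread between bulls. In limma they rest on the spread between pools and on the variances of all tested probes, worth 3.52 degrees of freedom. Which bulls are in which pool is not given in the sources used here. An exact permutation test of 2 against 2 pools cannot give a two-sided p below 0.333. The number of arrays limits the precision.

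A fold is given for probes not well above background in either pool of a group. It sets the mean of the brighter group against the dim signals, raised to the array's lowest signal well above background where lower. Where no signal was raised, the fold is the fitted fold change and not a minimum. 1 gene that the rule finds is not reported here and is left out of every count of members. All others are accounted for, with values in every pool for those called or with probes called both ways, and of each related list the scaffolds or the 2 largest falls and rises among called genes are named. Members and lists were chosen with earlier results of these data known.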

Additional observations from a re-analysis of the deposited data

Results flagged for a closer look

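Some probes outside the comparison, since neither group had them well above background in both pools, were well above background in low-fertile pool 1 and in neither high-fertile pool. An AARS probe, for the cytosolic alanine enzyme, had a processed signal of 17.5 there, beside 15.1, 13.0 and 8.39 in high-fertile pools 1 and 2 and low-fertile pool 2. A second VARS probe had 20.1, beside 11.5, 4.38 and 15.3. A further WARS probe had 20.3, beside 16.6, 16.1 and 6.89. A second TARS2 probe had 19.3, beside 15.2, 11.7 and 16.3, while the TARS2 probe that was tested was lower in both low-fertile pools. Their part in the comparison was not tested.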

How the results depend on the processing

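Depth was limited most on low-fertile pool 2, where fewest probes were well above background. In limma without a filter on dim probes 0 synthetase genes were called lower and 0 higher (9 of 35 at an unadjusted p under 0.05), as were 0 of all 32429 genes (6020 unadjusted), and by the methods' t-test 0 and 0 after adjustment (8 of 25 unadjusted), as of all 16682 genes (4828 unadjusted). With probes marked on all 4 arrays alone, 12 genes were tested, 1 was called lower, and the medians turned to 0.29 (cytosolic) and 0.20 (mitochondrial). Spike-in scaling left 1 gene called higher and moved the medians to -0.51 and -0.43. The GC correction turned the mitochondrial median to 0.0094, and taking the median of a gene's probes left 2 called higher, 9 in all, beside 27.1% of all genes. The mitochondrial median turned to 0.13 without spots on bright patches. Leaving out 1 pool in turn gave 3 to 7 genes called lower, 0 to 4 called higher (0 higher without either high-fertile pool, 1 without low-fertile pool 2, 3 lower without high-fertile pool 1) while calls over all genes went from 4357 to between 2008 and 3786, cytosolic medians of -0.28 to -0.14 and mitochondrial medians of -0.086 to 0.086, above 0 without high-fertile pool 1 (0.086) or pool 2 (0.043). YARS2 turned to -0.99 by the median of its probes and to -2.79 with probes of a shared run left out. These were the reversals among called genes. Among uncalled genes, spike-in scaling turned FARSA (-0.35), VARS (-0.34), LARS2 (-0.25), NARS2 (-0.20) and VARS2 (-0.14), and normexp turned FARSA (-0.067), MARS (0.062) and SARS (0.061). The GC correction turned FARSA (-0.20), VARS (-0.13), IARS2 (0.030) and SARS (0.055), and the median of probes CARS2 (0.00076). Without spots on bright patches IARS2 was 0.23 and WARS -0.19. With 1 pool left out FARSA ran from -0.26 to 0.31, VARS from -0.25 to 0.31, IARS2 from -0.38 to 0.22, MARS from -0.54 to 0.10, MARS2 from -0.42 to 0.043 and WARS from -0.20 to 1.31. For reversals other than those made by leaving out pools, spots or probes the cause was not tested. Leaving out shared-run probes and correcting for GC content were chosen after seeing the data. Equal pool numbers did not deviate together across groups (Pearson's r 0.0055 over 21024 probes), and with the replicate number as a block 9 of the 25 genes were called (24.5% of all genes) and AARS2 was not (adjusted p = 0.0594, limma). The deposited table, quantile scaling and the percentile over probes marked on all 4 arrays called 9, 10 and 8 genes in the directions given, beside 24.7%, 26.4% and 23.8% of all genes.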
